A study of Zea mays with 18 samples.

Results

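Transcript levels in primary roots were compared with those in shoots of untreated seedlings of the maize inbred line B73. The features compared were all gene models with a Zm00001d identifier and all microRNA (miRNA) genes that reached at least 1 RPKM in roots or in shoots, where RPKM is a read count divided by feature length and by library size. They numbered 24797 of the 45260 features in the table, namely 24745 of 43484 gene models and 52 of 154 miRNA genes. The comparison rests on 6 of the 18 samples of the study, with 3 biological replicates from primary roots and 3 from shoots, taken as stem, apex and coleoptile together. All seedlings were germinated in the dark for 3 days and then grown in nutrient solution, the controls without a hormone and the treated ones for 48 h with 1 nM epibrassinolide (EBL), a brassinosteroid. Primary roots and shoots of EBL-treated seedlings, 3 replicates each, and control 1st leaves serve below as further values for the same features.

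The table holds 1 value per group as the authors gave it, so the spread between replicates is unknown and nothing could be tested. Differences are therefore described by size: a feature was called higher in an organ when log2((root + 1)/(shoot + 1)) was at least 1 in size, a 2-fold difference after 1 RPKM is added to each value. The depth of the libraries is unknown, and the column sums were 952314 RPKM in control roots and 934116 RPKM in control shoots. The files and the reference table do not pair gene models with names, so the identity of the organs could not be checked against marker genes and gene models are described by their levels. In bulk organs, fewer cells of a type and less RNA per cell cannot be told apart.

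Roots take up water and ions and hold a meristem under a cap, while the shoot of a young maize seedling holds the apical meristem, the rolled leaf primordia and the coleoptile that shields them. Plant miRNAs are short RNAs cut from a longer, polyadenylated transcript, and each family lowers the transcripts of a small set of target genes, many of them transcription factors that set organ identity, growth or the response to nutrients. The libraries were made from polyA RNA, so the values at a miRNA gene describe this longer transcript and not the mature miRNA. The miRNA genes compared were 74 to 246 bases long in the RefSeq table.

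Differences between the organs were found in both directions among miRNA genes. Of the 52 compared, 14 (26.9%) were at least 2-fold higher in control roots and 22 (42.3%) at least 2-fold higher in control shoots. Among gene models these shares were 15.5% and 12.8%. Only 18 of the 36 miRNA genes that passed had a value above 0 in both organs, since 5 of the root-higher ones were listed at 0 in control shoots and 13 of the shoot-higher ones at 0 in control roots. No fold is given for these, because a listing at 0 may stand for an estimate that failed. Without features listed at 0 the counts were 9 in roots and 9 in shoots. With a mean of at least 5 RPKM the counts were 10 in roots and 8 in shoots, so the larger number in shoots was not seen under either. The 9 and 9 still hold MIR159f and MIR167h, at 0.0224 and 0.00236 RPKM in control shoots, and MIR393a, at 0.00750 RPKM in control roots. Of the 52, 26 reached 1 RPKM in both organs, 9 in roots alone and 17 in shoots alone. The 52 genes belong to 21 families, and 6 families had members higher in each organ. For MIR166, MIR171 and MIR393 this rests on members listed at 0 in an organ, and for MIR159 on the 0.0224 RPKM of MIR159f. Only MIR156 and MIR396 had members higher in each organ without such values.

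**Figure D1:**
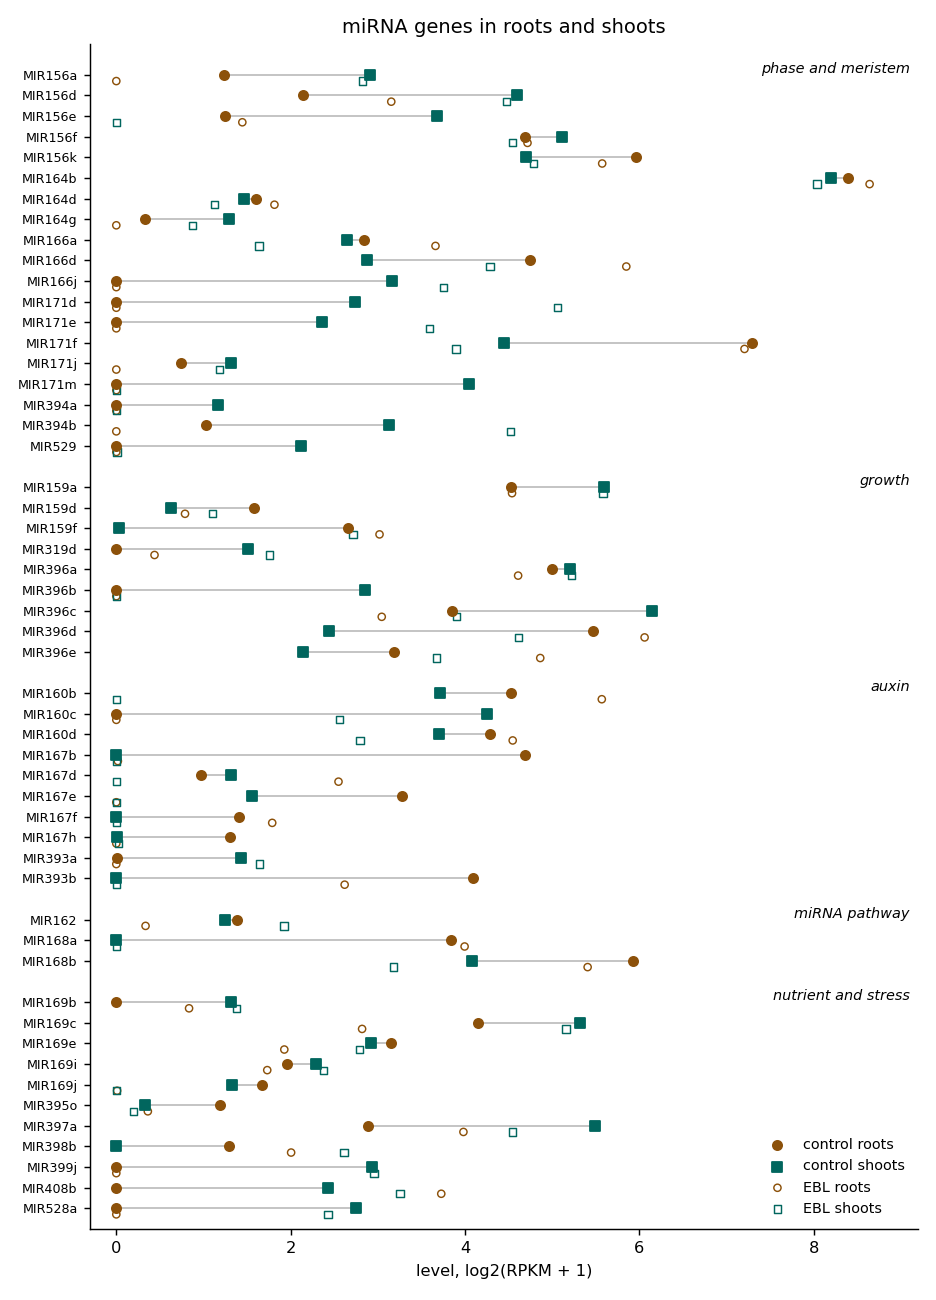
Level of each of the 52 miRNA genes, as log2(RPKM + 1), in control roots (filled circles) and control shoots (filled squares), joined by a line, with EBL roots and shoots as open symbols below. Genes are ordered by the role of their family; MIR171f, MIR396d and MIR168b lie to the right in roots, and MIR396c, MIR397a and MIR156d lie to the right in shoots.

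Families were grouped by role after their values were seen, so the counts by role below are a description only. Families that act in developmental phase and in meristems held 19 of the 52 genes. Of these, 3 were higher in roots, 10 higher in shoots and 6 within 2-fold, beside 14 root-higher and 22 shoot-higher of all 52. Among those 10, MIR166j, MIR171d, MIR171e, MIR171m, MIR394a and MIR529 were listed at 0 in control roots. MIR156a, MIR156d, MIR166j, MIR171d, MIR171e and MIR394b passed 2-fold again in EBL seedlings. Of these, all but MIR156d were listed at 0 in EBL roots. MIR164b, of the family that limits NAC transcription factors at the boundaries of organs, was the most abundant miRNA gene in both organs, at 335 RPKM in control roots and 292 RPKM in control shoots. It was within 2-fold (log2 ratio 0.20), and in EBL seedlings it stood at 398 RPKM in roots and 261 RPKM in shoots. MIR164d and MIR164g also stayed within 2-fold, MIR164g at 0.260 RPKM in control roots and 1.44 RPKM in control shoots (-0.95), which became -1.04 after quantile normalization and -2.10 with a pseudocount of 0.1.

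The MIR171 family, which in Arabidopsis targets GRAS transcription factors that keep meristems undifferentiated, had members called higher in each organ. Those called higher in shoots were all listed at 0 in control roots. Summed over the family, the levels were 156.3 RPKM in control roots and 47.6 RPKM in control shoots. MIR171f stood at 156 RPKM in control roots and 20.9 RPKM in control shoots, a log2 ratio of 2.84, and at 147 RPKM in EBL roots and 13.9 RPKM in EBL shoots. MIR171d and MIR171e were listed at 0 in roots in both treatments. MIR171d stood at 32.4 RPKM in EBL shoots and 5.64 RPKM in control shoots, and MIR171e at 11.1 RPKM in EBL shoots and 4.14 RPKM in control shoots. MIR171m had a value of 0 in control roots and 15.4 RPKM in control shoots, but it was listed at 0 in both organs of EBL seedlings, so its difference was not seen again.

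MIR156 and MIR529 both target SPL transcription factors, which promote the change from juvenile to adult growth. Within MIR156, 3 of 5 genes were higher in shoots and 1 was higher in roots. MIR156d stood at 3.42 RPKM in control roots and 23.3 RPKM in control shoots (log2 ratio -2.46), against 7.90 and 21.3 RPKM in roots and shoots of EBL seedlings. MIR156k went the other way, with 61.4 RPKM in control roots and 25.1 RPKM in control shoots (1.26), and was short of 2-fold in EBL seedlings at 46.6 and 26.6 RPKM. Summed over the family, the levels were close, at 92.3 RPKM in control roots and 100.3 RPKM in control shoots. For MIR529 the value was 0 in control roots and 3.33 RPKM in control shoots, with 0 in EBL roots and 0.00550 RPKM in EBL shoots.

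The MIR166 family restricts class III homeodomain-leucine zipper genes, which mark the upper side of leaves and pattern vascular tissue. MIR166d stood at 25.8 RPKM in control roots and 6.31 RPKM in control shoots (log2 ratio 1.87), and it was again higher in roots in EBL seedlings, at 56.7 and 18.5 RPKM. MIR166j was listed at 0 in roots in both treatments and stood at 12.5 RPKM in EBL shoots and 7.93 RPKM in control shoots. MIR166a was within 2-fold at 6.17 RPKM in control roots and 5.25 RPKM in control shoots, but passed it in EBL seedlings at 11.6 RPKM in roots and 2.11 RPKM in shoots (2.02). MIR394b, of a family that in Arabidopsis acts in the shoot meristem, stood at 1.04 RPKM in control roots and 7.71 RPKM in control shoots (-2.09), and was listed at 0 in EBL roots and at 21.9 RPKM in EBL shoots.

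Families that act on cell proliferation and growth, MIR159, MIR319 and MIR396, held 9 genes. Of these, 3 were higher in roots and 4 in shoots, beside 14 and 22 of all 52. Among the 4, MIR319d and MIR396b were listed at 0 in control roots. Among the 3, MIR159f stood at 0.0224 RPKM in control shoots. Only MIR159a, MIR319d, MIR396d and MIR396e passed 2-fold again in EBL seedlings. MIR396 targets growth-regulating factors, which promote cell division in leaves and roots. MIR396d stood at 43.1 RPKM in control roots and 4.44 RPKM in control shoots (log2 ratio 3.02), while MIR396c stood at 13.4 RPKM in control roots and 69.8 RPKM in control shoots (-2.29). In EBL seedlings MIR396d again passed 2-fold, at 65.7 RPKM in roots and 23.5 RPKM in shoots (1.45), while MIR396c fell short of it, at 7.25 and 13.9 RPKM (-0.85). MIR396a differed little, at 31.0 RPKM in control roots and 35.9 RPKM in control shoots. MIR396e, at 8.10 and 3.40 RPKM in the same columns (1.05), passed 2-fold only narrowly and fell short of it under each of the 3 other scalings. MIR159a, whose family targets GAMYB transcription factors, was close to the limit as well, at 22.1 RPKM in control roots and 47.4 RPKM in control shoots (-1.07), with nearly the same values in EBL seedlings (22.2 and 46.9 RPKM).

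Among the 10 genes of families that act on auxin signalling, 5 were higher in roots and 2 in shoots, beside 14 and 22 of all 52. Of the 5, MIR167b, MIR167f and MIR393b were listed at 0 in control shoots, and MIR167h stood at 0.00236 RPKM there. Only MIR167f and MIR393b of the 5 passed 2-fold again in EBL seedlings. MIR167f and MIR167h fell short of 2-fold with a pseudocount of 2. MIR167 and MIR160 target different auxin response factors, and MIR393 targets the auxin receptors. Of the 5 MIR167 genes, 4 were higher in control roots, and the family summed to 37.6 RPKM in control roots and 3.44 RPKM in control shoots. Most of that sum came from MIR167b, at 24.9 RPKM in control roots and listed at 0 in control shoots, but MIR167b stood at 0.0125 RPKM in EBL roots, a value as doubtful as a listing at 0. MIR167e, at 8.70 RPKM in control roots and 1.95 RPKM in control shoots, was listed at 0 in EBL roots and at 0.000584 RPKM in EBL shoots. MIR167f, with 2.45 RPKM in EBL roots and 1.65 RPKM in control roots, was listed at 0 in shoots of both. The root-higher values of the 2 most abundant members of this family were thus not seen in EBL seedlings.

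MIR393b showed the difference in both treatments, with 5.14 RPKM in EBL roots and 16.1 RPKM in control roots and a listing at 0 in shoots of both. Its family member MIR393a was at 0.00750 RPKM in control roots and 1.68 RPKM in control shoots, and was listed at 0 in EBL roots and at 2.12 RPKM in EBL shoots. MIR160c was listed at 0 in roots in both treatments and stood at 4.88 RPKM in EBL shoots and 18.1 RPKM in control shoots. MIR160b and MIR160d were within 2-fold in control seedlings, at 22.02 and 18.5 RPKM in roots and 12.1 RPKM each in shoots. In EBL seedlings MIR160d stood at 22.4 RPKM in roots and 5.94 RPKM in shoots and so passed 2-fold. MIR160b passed it as well, at 46.4 RPKM in EBL roots and 0.000517 RPKM in EBL shoots, the latter as doubtful as a listing at 0.

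Families that target the miRNA machinery itself were represented by 3 genes, 2 of them higher in roots, beside 14 of all 52. MIR168 targets ARGONAUTE, the protein that carries miRNAs. MIR168b stood at 59.6 RPKM in control roots and 15.9 RPKM in control shoots (log2 ratio 1.84), and at 41.4 RPKM in EBL roots and 8.08 RPKM in EBL shoots. MIR168a was listed at 0 in shoots in both treatments, with 14.9 RPKM in EBL roots and 13.3 RPKM in control roots. MIR162, whose family targets the DICER-LIKE enzyme that cuts miRNA precursors, was low in both organs, at 1.61 RPKM in control roots and 1.38 RPKM in control shoots.

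Of the 11 genes of families tied to nutrients and stress, 1 was higher in roots and 6 were higher in shoots, beside 14 and 22 of all 52. Among those 6, MIR169b, MIR399j, MIR408b and MIR528a were listed at 0 in control roots, and MIR169c, MIR399j and MIR528a passed 2-fold again in EBL seedlings. MIR397a, whose family targets laccases, copper enzymes that polymerise lignin, stood at 6.39 RPKM in control roots and 43.9 RPKM in control shoots (log2 ratio -2.60). In EBL seedlings the gap was under 2-fold, at 14.8 RPKM in roots and 22.3 RPKM in shoots. MIR169c, of the family that lowers NF-YA transcription factors, stood at 16.7 RPKM in control roots and 38.8 RPKM in control shoots (-1.17), and at 6.06 and 34.7 RPKM in EBL seedlings. MIR528a, of a family found in monocots, and MIR399j, of the family that answers phosphate starvation, were listed at 0 in roots in both treatments. MIR528a stood at 4.38 RPKM in EBL shoots and 5.73 RPKM in control shoots, and MIR399j at 6.76 RPKM in EBL shoots and 6.62 RPKM in control shoots. MIR408b, of a family that rises when copper is short, had a value of 0 in control roots and 4.36 RPKM in control shoots, but stood at 12.2 RPKM in EBL roots and 8.54 RPKM in EBL shoots. The gene higher in roots was MIR398b, at 1.44 RPKM in control roots and listed at 0 in control shoots, which in EBL seedlings stood at 3.01 and 5.11 RPKM.

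Of the 36 miRNA genes that passed 2-fold in control seedlings, 8 of the 14 root-higher ones (57.1%) and 13 of the 22 shoot-higher ones (59.1%) also passed in the same direction in EBL seedlings. Among those with at least 10 RPKM in either control organ, 10 of 16 did so. Over all 52, 13 were at least 2-fold higher in EBL roots and 15 in EBL shoots. Many of the repeats rest on a listing at 0 in a control or EBL column. Among the root-higher repeats, only MIR166d, MIR168b, MIR171f, MIR396d and MIR396e were above 0 in both organs of both treatments. Among the shoot-higher ones, only MIR156d, MIR159a and MIR169c were. The shares that passed again can be set beside the change of a miRNA gene within an organ: 32.7% of the 52 differed at least 2-fold between EBL and control roots and 38.5% between EBL and control shoots. For gene models these within-organ shares were 2.42% and 0.78%. The part of EBL itself and of imprecise values at short loci in these shares was not tested.

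Gene models differed widely between the organs. At least 2-fold higher in control roots were 3841 of 24745 (15.5%), and 3166 (12.8%) were at least 2-fold higher in control shoots, together 28.3%. The balance turned as the fold of the rule was raised. With 1 RPKM added to each value, low features cannot reach the larger folds, and most of the excess in roots lay below 10 RPKM. The part of this limit in the turn was not tested. At 4-fold the counts were 1461 (5.9%) in roots and 1475 (5.96%) in shoots, at 8-fold 590 (2.38%) and 692 (2.8%), and at 32-fold 76 (0.307%) and 90 (0.364%). The median log2 ratio over all gene models was 0.07, and the middle of the distribution, from the lower to the upper quartile, ran from -0.38 to 0.58. The remaining 17738 gene models, within 2-fold, had medians of 12.5 RPKM in control roots and 12.4 RPKM in control shoots.

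**Figure D2:**
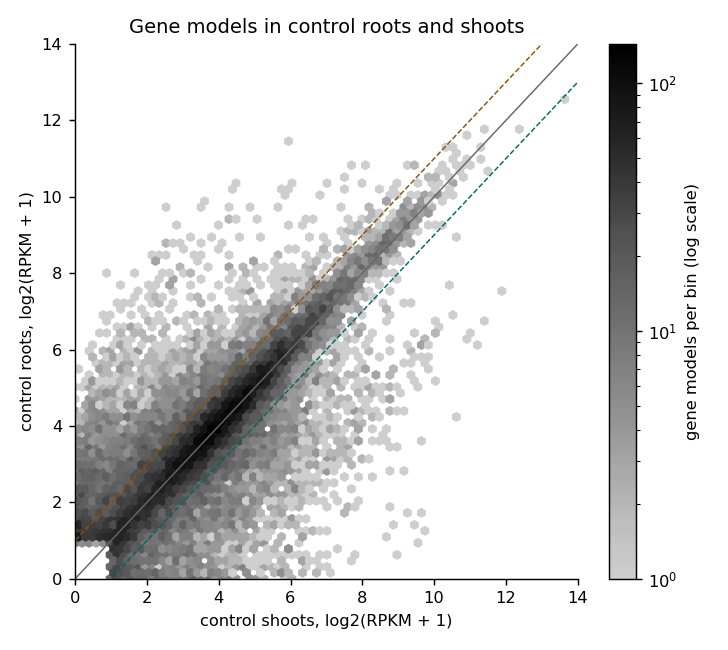
Level of the 24745 gene models in control roots (vertical axis) against control shoots (horizontal axis), both as log2(RPKM + 1), with darker bins holding more gene models. The solid line marks equal levels and the dashed lines a 2-fold difference, with 3841 gene models on or above the upper line and 3166 on or below the lower one.

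Part of the differing gene models were below 1 RPKM in the other organ. Of the 7007 that differed 2-fold, 4678 (66.8%) reached 1 RPKM in both organs, and of the 590 at least 8-fold higher in roots 310 did so. Over all 24745 gene models, 21288 reached 1 RPKM in both organs, 2004 did so in roots alone and 1453 in shoots alone. In EBL seedlings 1607 of the 2004 again reached 1 RPKM in roots alone, and 1076 of the 1453 in shoots alone. Listed at 0 were 120 gene models in control shoots and 105 in control roots. Of the 120, 21 stood at 10 RPKM or more in control roots, and of the 105, 33 did so in control shoots. The limit of 1 RPKM cut through a continuum of low values. The 244 features whose higher value lay from 1.0 to below 1.1 RPKM had medians of 1.02 RPKM in control roots and 0.942 RPKM in control shoots, and the 303 from 0.9 to below 1.0 RPKM, which were left out, had medians of 0.903 and 0.901 RPKM.

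The share of gene models that differed varied with level. At the lowest levels the rule itself limits the calls, since with 1 RPKM added the other organ must lie well below 1 RPKM. Below 2 RPKM in the higher organ, 12.5% of 2007 gene models were higher in roots and 6.73% higher in shoots. From 30 to below 100 RPKM these shares were 14.6% and 15.7% of 4944, the only range in which shoots had the larger share. At 1000 RPKM or more, 21 of 84 gene models (25.0%) were higher in roots and 14 (16.7%) higher in shoots. Below 10 RPKM in the higher organ, 1654 gene models were higher in roots and 1045 in shoots, while at 10 RPKM or more the numbers were 2187 and 2121, so most of the excess in roots lay at low levels. The values by level were not rescaled. After median-ratio scaling the excess over all levels was smaller, with 3616 gene models higher in roots and 3363 in shoots.

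**Figure D3:**
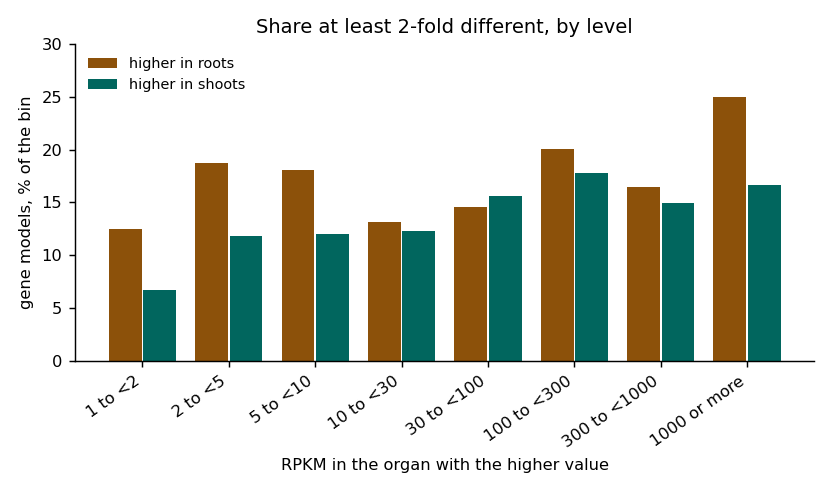
Share of gene models at least 2-fold higher in control roots (left bar of each pair) and in control shoots (right bar), in bins of the RPKM value in the organ where it was higher. Root-higher shares exceed shoot-higher ones in every bin but that from 30 to below 100 RPKM.

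The lists of the most abundant gene models overlapped in part. Of the 10 most abundant in control roots and the 10 in control shoots, 5 were shared. Among the 10 of roots, 1 was at least 2-fold higher in roots and 1 higher in shoots. Among the 10 of shoots, 0 were higher in roots and 5 were higher in shoots. Of the 100 most abundant gene models in control roots and the 100 in control shoots, 60 were shared, and of the 1000 in each organ 694 were shared. Among the 100 of roots, 30 were at least 2-fold higher in roots and 1 was higher in shoots. Among the 100 of shoots, 0 were higher in roots and 29 were higher in shoots. Root-higher gene models took 21.2% of the RPKM summed over the compared gene models in control roots and 4.91% in control shoots. Shoot-higher ones took 3.48% in control roots and 21.8% in control shoots. The gene models at least 8-fold higher in shoots alone made up 11.5% of the sum in control shoots, against 7.19% for the 8-fold root-higher ones in control roots.

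The identifiers with the largest differences, among those with at least 10 RPKM in the higher organ and a value above 0 in both, were the following. Zm00001d017508 stood at 865 RPKM in control roots and 5.17 RPKM in control shoots (log2 ratio 7.13), at 757 RPKM in EBL roots and 0.632 RPKM in EBL shoots, and at 0.595 RPKM in control leaves. Zm00001d035756 stood at 244 RPKM in control roots and 0.922 RPKM in control shoots (6.99), at 135 RPKM in EBL roots and 0.428 RPKM in EBL shoots, and at 0.362 RPKM in control leaves. Both were thus high in roots of both treatments and low elsewhere. Zm00001d030314 stood at 1.38 RPKM in control roots and 902 RPKM in control shoots (-8.57), and at 11.5 RPKM in EBL roots and 1182 RPKM in EBL shoots. Zm00001d043049 stood at 1.01 RPKM in control roots and 733 RPKM in control shoots (-8.51), and at 13.8 RPKM in EBL roots and 1020 RPKM in EBL shoots. In control leaves Zm00001d030314 reached 150 RPKM and Zm00001d043049 reached 7.38 RPKM, so that one was also abundant in leaves and the other was much lower there than in shoots.

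In control leaves the gene models of both classes stood apart. The 3841 root-higher gene models had medians of 12.97 RPKM in control roots, 2.12 RPKM in control shoots and 3.36 RPKM in control leaves. The 3166 shoot-higher ones had medians of 2.95 RPKM in control roots, 18.1 RPKM in control shoots and 18.1 RPKM in control leaves. The contrast widened at 8-fold, where the median in leaves was 0.657 RPKM for the 590 root-higher gene models and 63.1 RPKM for the 692 shoot-higher ones. In the leaf column the shoot-higher class took 54.9% of the summed RPKM of the compared gene models and the root-higher class 7.10%. Of the root-higher gene models 2568 of 3841 (66.9%) reached 1 RPKM in control leaves, and of the shoot-higher ones 2737 of 3166 (86.4%), beside 83.8% of all gene models compared and 86.9% of those within 2-fold.

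**Figure D4:**
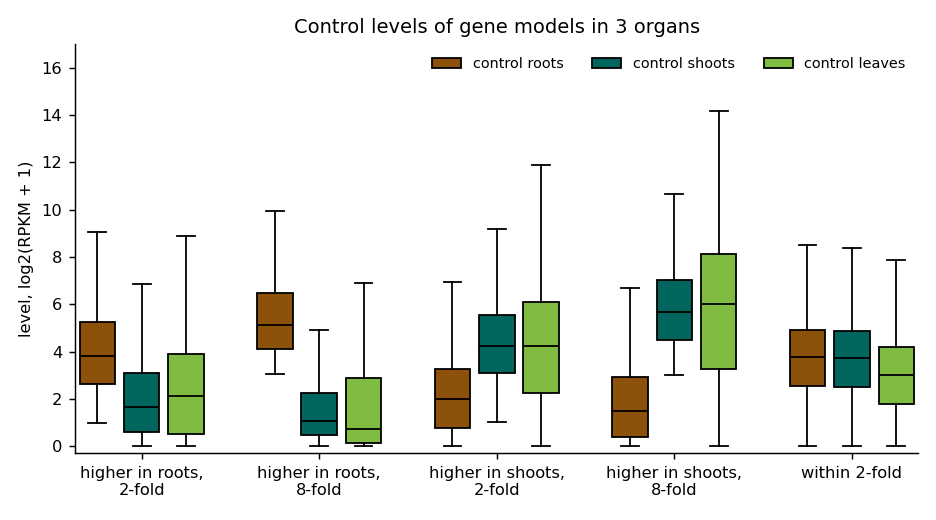
Levels, as log2(RPKM + 1), in control roots, control shoots and control leaves of gene models called higher in roots or in shoots by 2-fold and 8-fold, and of those within 2-fold. Boxes span the quartiles with the median as a line, and whiskers reach the farthest value within 1.5 times the box. Shoot-higher gene models reach leaf medians of 18.1 and 63.1 RPKM, root-higher ones 3.36 and 0.657 RPKM.

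The columns of EBL-treated seedlings come from other samples and give the same comparison a second time, with the hormone present in both organs. Over the 24745 gene models, 3911 (15.8%) were at least 2-fold higher in EBL roots and 3308 (13.4%) in EBL shoots. Of the 3841 gene models higher in control roots, 3226 (84.0%) also passed 2-fold in that direction in EBL seedlings and 3800 had the same sign. Of the 3166 higher in control shoots, 2857 (90.2%) passed and 3125 had the same sign. Only 13 root-higher and 6 shoot-higher gene models passed 2-fold in the opposite direction. Spearman's rank correlation of the log2 ratios in both treatments was 0.911 over 24745 gene models and 0.664 over the 52 miRNA genes, given as a description since features are not independent replicates and the columns of an organ share the organ and the authors' scaling.

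**Figure D5:**
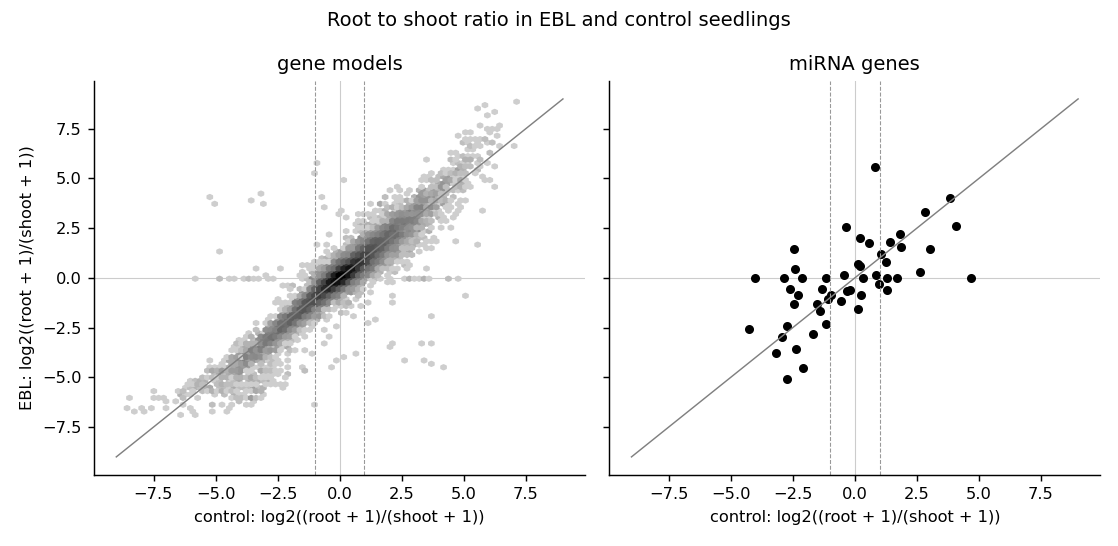
Log2 ratio of roots to shoots in EBL seedlings (vertical axis) against that in control seedlings (horizontal axis), for 24745 gene models (left, darker bins hold more) and 52 miRNA genes (right, 1 point each). The solid line marks equal ratios and dashed lines a 2-fold difference in controls; gene models lie along the line, and miRNA genes scatter more widely.

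How often a difference was seen again rose with level. Of the gene models that differed 2-fold in control seedlings, 61.7% passed in the same direction in EBL seedlings when the higher control value was below 2 RPKM, 86.2% from 5 to below 10 RPKM, 90.8% from 100 to below 300 RPKM and 100% at 1000 RPKM or more. Differences between the organs were also far larger in number than those between treatments. Over the same gene models 598 (2.42%) differed 2-fold between EBL and control roots and 193 (0.78%) between EBL and control shoots, against 7007 (28.3%) between control roots and control shoots. The within-organ counts hold the effect of EBL as well as any technical spread, and the replicate spread is not known from these values.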

How the data were processed

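PolyA RNA of 18 B73 seedling samples was sequenced from stranded TruSeq libraries, per the labels' protocols. The authors deposited RPKM values in a table whose headers name a single column for each group, per the file headers. How the 3 replicates were combined is not stated in the labels, nor is any scaling between libraries. The submitters' processing notes name CASAVA 1.8, Trimmomatic 0.33, TopHat2 2.0.13, Cufflinks 2.2.1 and the build B73 RefGen_v4, without roles. The depth is unknown, so no interval is given.

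Gene models and miRNA genes with at least 1 RPKM in control roots or control shoots were compared as log2((root + 1)/(shoot + 1)), and 2-fold was the size rule. A fold on this scale understates changes at low values. The planned limma test needs a column per replicate and was not run. The reference table of gene names, from RefSeq on Zm-B73-REFERENCE-NAM-5.0, matched 153 miRNA genes and 0 gene models, so 24 gene lists, tissue markers included, had 0 members and gave no result, and no coordinates or sequences are given. All miRNA genes compared could be named, and of the gene models the 2 with the largest ratio in each direction, with at least 10 RPKM in the higher organ and above 0 in both. MiRNA families were grouped by role after their values were seen. The features and lists were chosen with earlier results of these data known. Alternatives were pseudocounts of 0.1 and 2, no minimum, a mean of at least 5 RPKM, median-ratio, sum and quantile scaling, features at 0 left out, and 4-fold and 8-fold rules; a minimum of 1 RPKM in both organs was added after the data were seen. The tools were Python 3.11.15 with pandas 2.3.3, numpy 2.4.6, matplotlib 3.10.9 and scipy 1.17.1.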

Additional observations from a re-analysis of the deposited data

Results flagged for a closer look

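MIR156e differed between organs in opposite directions in both treatments. It stood at 1.37 RPKM in control roots and 11.8 RPKM in control shoots, a log2 ratio of -2.44, and at 1.72 RPKM in EBL roots, against a listing at 0 in EBL shoots. Each group is a single value, so this difference was not tested, and the listing at 0 can be a failed estimate.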

How the results depend on the processing

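No paired analysis was possible because the table holds 1 column per group, so neither a fit with the replicate number as a block nor one that leaves out a replicate was run. Under pseudocounts of 0.1 and 2, no minimum, 3 other scalings and the omission of features at 0, the counts of gene models stayed within 1.5 times those reported. A mean of at least 5 RPKM left 2379 gene models higher in roots, a minimum of 1 RPKM in both organs 2450, the 4-fold rule 1461 higher in roots and 1475 in shoots, and the 8-fold rule 590 and 692; these rules are stricter by construction. The share of calls that were higher in roots was 54.8% as reported, 51.8% after median-ratio scaling and 51.2% at a mean of at least 5 RPKM. Among miRNA genes, leaving out features at 0 gave 9 higher in roots and 9 in shoots, and a mean of at least 5 RPKM gave 10 in roots and 8 in shoots, which turns the balance between the organs. Of these alternatives only the 3 other scalings could change the sign of a ratio, and no named feature that passed 2-fold changed sign under them. With a pseudocount of 2, 8 miRNA genes fell short of 2-fold (MIR167f, MIR167h, MIR169b, MIR319d, MIR393a, MIR394a, MIR396e and MIR398b), and with 0.1, 4 more passed it. The depth is unknown, which limits what low values can show.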

Other observations

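Features outside the comparison also differed between the organs. Of 421 non-coding RNA features with ENSRNA identifiers and at least 1 RPKM in either organ, 75 were at least 2-fold higher in control roots and 159 in control shoots. Of 51 features with GRMZM5G identifiers, 0 were higher in control roots and 23 in control shoots, by the same size rule and with no replicate test. Among gene models the shares were 15.5% higher in control roots and 12.8% higher in control shoots. The libraries were made from polyA RNA, and how well they capture features of these 2 kinds was not tested.

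Some gene models with large differences had identifier numbers close to each other. Of the 590 gene models at least 8-fold higher in control roots, 148 (25.1%) had another such gene model within 5 identifier numbers, while 9.96% of the other 24155 gene models had one that near. For the 692 at least 8-fold higher in control shoots these shares were 17.9% and 12.7% of the other 24053. Positions on the genome were not used here.

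MIR396a and MIR396e follow each other in the RefSeq gene order with no other annotated gene between them. MIR396a stood at 31.0 RPKM in control roots and 35.9 RPKM in control shoots, a log2 ratio of -0.20, and MIR396e at 8.10 RPKM in control roots and 3.40 RPKM in control shoots, a log2 ratio of 1.05.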
